A study of Mus musculus with 2 samples.

Results

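The 10 genes described here make or load major histocompatibility complex (MHC) class I, and were chosen by name for their role: B2m, H2-K1, H2-D1, Tap1, Tap2, Tapbp, Psmb8, Psmb9, Psmb10 and Nlrc5, out of 32285 genes listed in the count matrices. They were followed in GR1+ cells taken with magnetic beads from 4T1 tumors, a BALB/c mammary carcinoma grown in the mammary fat pad of BALB/c mice of 6 to 8 weeks. The non-responding tumors were 4T1P, the parental cells, and the responding tumors were 4T1M, a mutagenized clone of them that is sensitive to anti-PD1 treatment. Each condition is 1 droplet library in which, by the sample records, 5 mice were pooled, so no spread between animals can be measured, no test between conditions was made, and every interval below is a 95% interval for counting error only. 4T1M is a clone and 4T1P its parental population, so the tumor type, the library and the pool of animals cannot be told apart in any difference between them.

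Class I molecules carry peptides of a cell's own proteins to its surface, where CD8 T cells read them. Proteins are cut by the proteasome, whose standard catalytic subunits are exchanged for Psmb8, Psmb9 and Psmb10 under interferon to give the immunoproteasome. Peptides enter the endoplasmic reticulum through the TAP transporter, a pair of Tap1 and Tap2, and tapasin, the product of Tapbp, holds the empty heavy chain at the transporter until a peptide fits. The heavy chains H2-K1 and H2-D1 reach the surface together with beta-2 microglobulin, the product of B2m, and Nlrc5 is the transactivator that switches on most genes of the pathway. GR1 is an epitope of Ly6G and Ly6C, so the sort holds neutrophils as well as monocytic cells, both of which carry class I.

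Of the 10 genes, 7 lie on chromosome 17 (GRCm38), in or beside the MHC. Tapbp is at chr17:33915899-33929292 and H2-K1 at chr17:33996017-34000347. Psmb9 (chr17:34181987-34187764), Tap1 (chr17:34187553-34197225), Psmb8 (chr17:34197721-34201454) and Tap2 (chr17:34203527-34216321) follow one another, and H2-D1 is at chr17:35262730-35267499. B2m is at chr2:122147686-122153083, and Nlrc5 (chr8:94434356-94527272) and Psmb10 (chr8:105935735-105938444) share chromosome 8. Tap1 and Psmb9 are transcribed away from each other from start sites 226 bases apart in RefSeq, so that their promoters share 275 of 300 bases.

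The promoters of the chains and of Tap1 are shown as background, and no link between their sequences and the ratios below was tested. RefSeq windows (GRCm38.p6) from 250 bases before to 50 after the start were available for 8 of the 10 genes, not Tap2 and Nlrc5. The letters searched on both strands were GGG and CCC with any 5 bases between them (like sites of NF-kB), a pair of GAAA 2 bases apart and the shorter AANNGAAA (like interferon-stimulated response elements), TGACG (like the X2 box) and CCAAT (the Y box). They were chosen after the sequences had been read, and the matches on the printed or the opposite strand are in capitals. The 200 bases before the start are given 5′ to 3′ on the gene's strand.
B2m, chr2:122147487-122147686, plus strand: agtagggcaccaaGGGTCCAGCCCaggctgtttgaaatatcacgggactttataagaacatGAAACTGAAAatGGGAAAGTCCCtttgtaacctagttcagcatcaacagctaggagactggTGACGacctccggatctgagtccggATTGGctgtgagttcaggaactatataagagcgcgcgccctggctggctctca
H2-K1, chr17:34000348-34000547, minus strand: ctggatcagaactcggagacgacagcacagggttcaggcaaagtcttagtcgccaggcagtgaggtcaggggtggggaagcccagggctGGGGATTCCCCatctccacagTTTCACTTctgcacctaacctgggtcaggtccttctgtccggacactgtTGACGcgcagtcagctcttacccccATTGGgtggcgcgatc
H2-D1, chr17:35262894-35263093, plus strand: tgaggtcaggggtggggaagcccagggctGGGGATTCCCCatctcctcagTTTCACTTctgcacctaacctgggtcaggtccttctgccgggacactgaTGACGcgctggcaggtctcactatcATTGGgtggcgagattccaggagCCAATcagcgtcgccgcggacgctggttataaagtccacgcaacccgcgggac
Tap1, chr17:34187356-34187555, plus strand: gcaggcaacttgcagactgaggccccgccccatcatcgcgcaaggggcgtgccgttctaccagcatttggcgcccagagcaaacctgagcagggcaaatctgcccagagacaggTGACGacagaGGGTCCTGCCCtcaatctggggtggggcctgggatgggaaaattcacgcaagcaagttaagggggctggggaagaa
In all 3 chain promoters TGACG was followed by a CCAAT on the opposite strand after the same step of 25 bases, and in H2-K1 and H2-D1 the step from the NF-kB-like letters to TGACG was 70 bases in each, against 49 in B2m. The NF-kB-like letters were found in 5 of the 8 windows (B2m, H2-K1, H2-D1, Tap1 and Psmb9) and in 13.8% of all 27025 promoters in the table, and TGACG in the same 5 and in 5681 of the 27025. CCAAT was in 6 of the 8, the 5 above and Tapbp, and in 37.9% of all promoters. The pair of GAAA was in B2m alone among the 8 (3.49% of all), overlapping a match of AANNGAAA, which was also in H2-K1 and H2-D1 (24.2% of all). These are matches of letters in a window and show no binding.

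Barcodes were kept with 500 to 5000 genes and no more than 10% of UMIs from mitochondrial genes. With these limits 1726 of 2947 barcodes remained in 4T1P and 3461 of 5004 in 4T1M, with 12948585 and 19302483 UMIs. Neutrophils were cells with at least 1.5% of their UMIs from S100a8 and S100a9 and under 0.5% from C1qa, C1qb, C1qc and Apoe (612 cells in 4T1P, 1686 in 4T1M). Macrophages were cells below 1.5% for S100a8 and S100a9 with at least 0.3% of UMIs from macrophage genes (798 and 976), and T/NK cells had at least 2 of 6 T and NK cell genes (74 and 98). Median UMIs per cell were close between libraries, at 3054.5 and 2957.5 in neutrophils, 9727 and 9213.5 in macrophages and 5640 and 5596.5 in T/NK cells. The median mitochondrial share of neutrophils was 2.76% in 4T1P and 1.81% in 4T1M. Markers that the rules did not use sided with the names: the 9 neutrophil markers summed to 18774 CPM (UMIs of the gene per 1000000 UMIs of the class) in 4T1P neutrophils against 364 in 4T1P macrophages, and to 15916 against 513 in 4T1M. The 10 macrophage markers separated the classes less, at 16727 CPM in 4T1P macrophages against 5652 in neutrophils, and 12412 against 5222 in 4T1M. The classes are cuts on a continuous share, with 70 cells of 4T1P and 269 of 4T1M at 1 to 2% for S100a8 and S100a9, and 1 cell of 4T1P and 4 of 4T1M met the rules of 2 classes. The libraries shared 5 barcodes, 3 of them retained in both.

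In neutrophils, the class I genes were for the most part slightly higher in 4T1M, with Nlrc5 the furthest apart. As a sum the 10 genes made up 0.389% of the UMIs of 4T1P neutrophils and 0.462% of those of 4T1M. Of the 10, 4 lay above a log2 ratio of 0.35 (4T1M over 4T1P; the fold limit in the study's methods), where 20.7% of all 6464 genes measured in neutrophils did, and 0 lay below -0.35, where 10.3% did; no test was made. A gene counted as measured with at least 50 UMIs over both libraries. The median log2 ratio of the 10 genes was 0.28, beside 0.05 over all measured genes, and 9 of 10 were above 0, beside 55.7%.

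Among the chains, H2-K1 differed most in neutrophils. H2-K1 was at 685 CPM (653 to 718) in 4T1P and 926 CPM (903 to 949) in 4T1M, a log2 ratio of 0.44 (0.36 to 0.51), and 0.59 (0.50 to 0.67) with a mitochondrial limit of 5%. B2m was at 1004 and 1215 CPM (log2 ratio 0.27, 0.21 to 0.34). H2-D1 moved least of the 3, from 1620 to 1771 CPM (0.13, 0.08 to 0.18). The ratio intervals of all 3 chains lay above 0, as did those of 1053 of the 6464 measured genes. The ratios of B2m and H2-D1 stayed within the limit of 0.35. Intervals narrow with the number of UMIs, and H2-D1 had 4054 in 4T1P and 11650 in 4T1M. The matrices were counted against the reference genome, which holds the C57BL/6 alleles, while the cells carry those of BALB/c, so a level of H2-K1 or H2-D1 is of the reads that aligned to other alleles, in both libraries; how many reads this loses was not tested.

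The peptide transport genes parted company in neutrophils. Tap1 was at 87.1 CPM in 4T1P and 106 in 4T1M (log2 ratio 0.29, 0.07 to 0.51). Its partner Tap2 was at 54.7 and 46.5 CPM (-0.24, -0.53 to 0.07), the only one of the 10 genes with a ratio below 0 in neutrophils, with an interval that spanned 0. Tapbp stood at 127 CPM (113 to 141) in 4T1P against 179 CPM (169 to 190) in 4T1M (0.50, 0.32 to 0.68), and 820 of the 6464 genes had a higher ratio. The Tapbp interval overlapped that of Tap1 and lay above that of Tap2.

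The immunoproteasome genes of neutrophils were close between libraries except for Psmb10, the least counted of them. Psmb8 was at 135 and 155 CPM (log2 ratio 0.20, 0.02 to 0.39), and Psmb9 at 149 and 166 CPM (0.16, -0.01 to 0.34). Psmb10 was at 20.8 CPM in 4T1P (15.5 to 27.2) and 31.9 in 4T1M (27.7 to 36.5), from 52 and 210 UMIs, a log2 ratio of 0.62 (0.18 to 1.09). In the neutrophils without a UMI of a macrophage or class II gene (118 and 306 cells), the Psmb10 ratio was -0.062 (-1.12 to 1.07), an interval that also holds the value over all neutrophils.

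Nlrc5, the transactivator, was at 9.99 CPM in 4T1P neutrophils and 25.8 CPM in 4T1M, from 25 and 170 UMIs. Its log2 ratio was 1.37 (0.76 to 2.04), and 60 of the 6464 measured genes had a higher one. The value lay between 1.17 and 1.80 over the alternative settings, the neutrophils without macrophage or class II UMIs included.

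**Figure D1:**
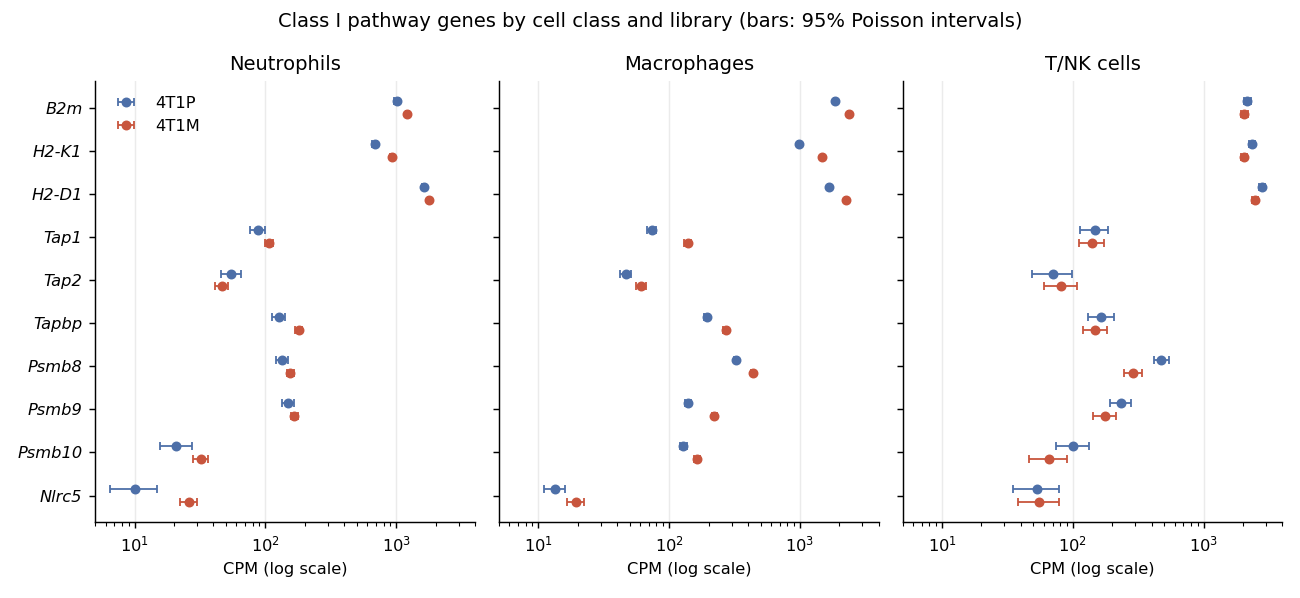
Level of each gene (CPM, log axis) in the summed neutrophils, macrophages and T/NK cells of 4T1P (blue) and 4T1M (red), with bars for 95% Poisson intervals. In macrophages all 10 genes sit further right in 4T1M, for example Tap1 at 138 against 73.8 CPM, while in T/NK cells Psmb8 sits further left, at 288 against 474 CPM.

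UMIs of genes typical of other cells were counted in neutrophils, and whether they came from other cells was not tested. Macrophage rule genes summed to 639 CPM in 4T1P neutrophils and 703 in 4T1M (19068 and 18800 in macrophages). The neutrophil rule caps 4 of these genes, so the low sums were set in part by the rule. The 10 macrophage markers outside the rules summed to 5652 and 5222 CPM. Of 9 measured, 3 were above 0.35 (20.7% of all genes were) and 2 below -0.35 (10.3% were). Class II genes summed to 593 and 704 CPM. Markers of tumor epithelium summed to 74.3 and 13.5 CPM, and the 4 globin genes to 4.39 and 152 CPM. Leaving out neutrophils with an epithelial, B cell or dendritic UMI kept 567 and 1606 cells and 4 genes above 0.35. For this subset and the next, the share of all genes above 0.35 is not given, so the counts have no background. Without neutrophils holding a macrophage or class II UMI (118 and 306 cells) 4 measured genes were above 0.35 as well, but not the same ones. H2-K1 and Tapbp were joined there by B2m at 0.55 (0.38 to 0.72) and Tap1 at 0.94 (0.34 to 1.58), both higher than over all neutrophils, while Psmb10 was below the limit and Nlrc5, at 1.80 (0.29 to 3.76), had under 50 UMIs and was not counted. S100a8 and S100a9 themselves took 158877 CPM in 4T1P neutrophils and 129551 in 4T1M, and the part of these in the ratios was not tested beyond scaling, with which the median ratio of the 10 genes was 0.24 (TMM) and 0.28 (DESeq2 size factors).

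In macrophages, every class I gene of the 10 was higher in 4T1M, by counting intervals that all lay above 0. The interval lay above 0 for 1216 of all 9874 measured genes. They made up 0.540% of macrophage UMIs in 4T1P and 0.739% in 4T1M. Of the 10 genes, 9 lay above a log2 ratio of 0.35, beside 9.57% of the 9874 genes measured in macrophages, and 0 lay below -0.35, beside 12.1%. Their median log2 ratio was 0.45 and that of all measured genes -0.03, and 10 of 10 were above 0, beside 43.9%. Over 9 alternative settings none of the 10 changed sign in macrophages, and between 6 and 10 stayed above 0.35. The shares of all genes above 0.35 under those settings are not given. Not all intervals stayed above 0. With a mitochondrial limit of 5%, those of Psmb10 (0.12, -0.048 to 0.28) and Nlrc5 (0.45, -0.049 to 0.96) spanned it.

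Tap1 differed the most of the 10 in macrophages. Its level was 73.8 CPM (68.2 to 79.7) in 4T1P and 138 CPM (131 to 146) in 4T1M, which gives 0.91 (0.77 to 1.05) as log2 ratio, and 157 of 9874 genes had a higher one. Psmb9, which shares its promoter region with Tap1, went from 139 to 221 CPM (0.66, 0.56 to 0.77). The neighbors Psmb8 (324 and 435 CPM; 0.43, 0.36 to 0.50) and Tap2 (46.7 and 61.2 CPM; 0.39, 0.21 to 0.58) differed by less. The intervals of Tap1 and Psmb9 lay above that of Psmb8, a gene of the same block of chromosome 17, while that of Tap2 overlapped the intervals of Psmb8 and Psmb9.

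H2-K1 was at 979 CPM in 4T1P macrophages and 1486 CPM in 4T1M (log2 ratio 0.60, 0.56 to 0.64). H2-D1 was at 1663 and 2236 CPM (0.43, 0.40 to 0.46). B2m was at 1844 and 2361 CPM (0.36, 0.33 to 0.39), just past the limit. H2-K1 thus led the chains here as it did in neutrophils. Tapbp was at 194 and 270 CPM (0.48, 0.39 to 0.57). Nlrc5 was at 13.3 and 19.3 CPM from 117 and 180 UMIs (0.53, 0.19 to 0.88). Psmb10, at 129 and 163 CPM (0.34, 0.23 to 0.45), was the one gene just short of 0.35. S100a8 and S100a9, on which the class rule cuts, were at 1081 CPM in macrophages of 4T1M and 544 in those of 4T1P. Whether these UMIs came from neutrophils, and their part in the ratios, was not tested. With stricter class limits 9 of 10 genes were above 0.35, and the share of all genes under those limits is not given.

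**Figure D2:**
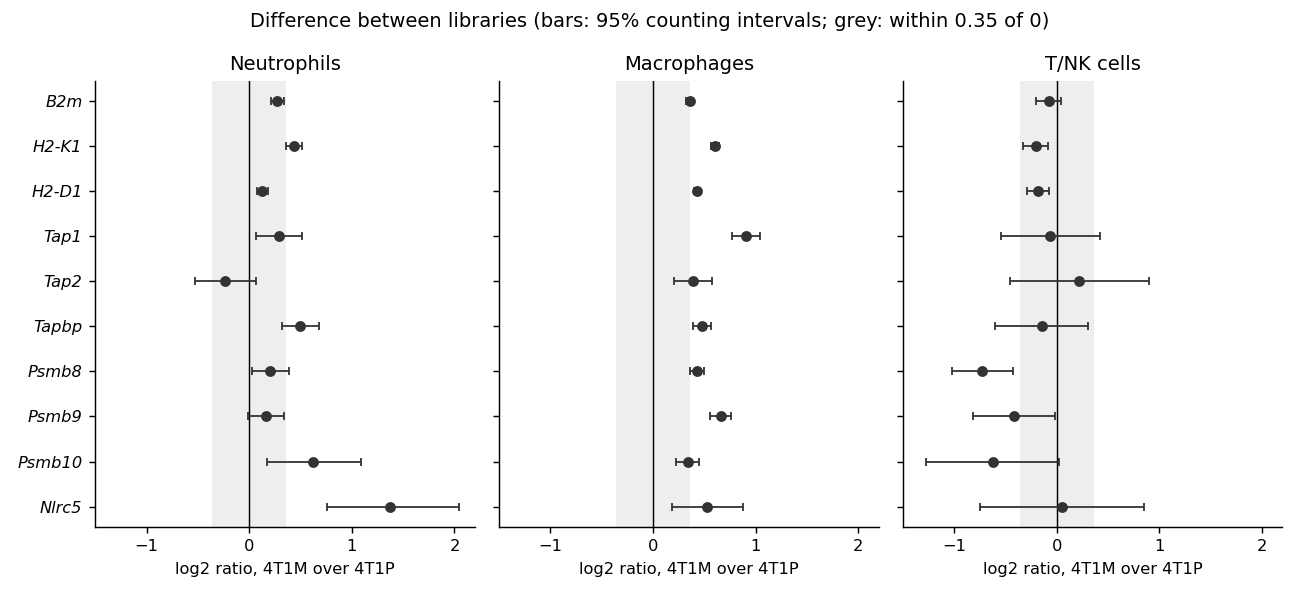
Log2 ratio of 4T1M over 4T1P for each gene in neutrophils, macrophages and T/NK cells, with bars for 95% counting intervals and a grey band within 0.35 of 0. In macrophages 10 of 10 intervals lie above 0, in neutrophils 8, and in T/NK cells 0. Of all measured genes 1216 of 9874, 1053 of 6464 and 223 of 3154 have such an interval, in the same order of classes.

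The 74 and 98 T/NK cells, which the sort carries along, had other ratios than the myeloid classes, a difference that was not tested. The 6 genes of the rule, which define the class and so do not describe its make-up, summed to 4122 CPM in 4T1P and 3096 in 4T1M. Markers outside the rule also differed between libraries. Of 9 measured, 3 were above 0.35 (11% of all measured genes were) and 5 below -0.35 (25.8% were). Cd4, the coreceptor of helper T cells, had a log2 ratio of -1.90 (-2.84 to -1.04), Cd8a, that of cytotoxic T cells, one of 0.81 (0.39 to 1.23), and Gzma, a granzyme, one of 4.06 (3.19 to 5.08). The part of this in the class I ratios was not tested. Of the 10 genes, 0 lay above 0.35 (11% of 3154 measured genes did) and 3 below -0.35 (25.8% did), and 2 of 10 were above 0 (39.4% were). The median log2 ratio was -0.16, and that of all measured genes -0.10. TMM and DESeq2 factors put the shift of all T/NK genes at -0.12 and -0.16, and relative to it B2m and Tap1 turned positive under either and Tapbp under DESeq2 factors.

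In T/NK cells 3 of 10 genes were below the limit, near the share of all measured genes (25.8%). They were Psmb8, Psmb9 and Psmb10. With TMM or DESeq2 scaling 2 of them stayed below it, and in T/NK cells without class II UMIs 1 did. No share of all genes is given for these settings. Psmb8 was at 474 CPM (415 to 540) in 4T1P and 288 CPM (246 to 335) in 4T1M, a log2 ratio of -0.72 (-1.02 to -0.43), which stayed between -0.72 and -0.46 over the alternative settings. Psmb9 was at 233 and 175 CPM (-0.41, -0.82 to -0.01). Psmb10 was at 101 and 65.8 CPM from 49 and 38 UMIs (-0.62, -1.27 to 0.02). Its ratio was 0.085 with a mitochondrial limit of 5% and 0.032 with no upper limit on genes, so its direction rests on these limits. Only the Psmb8 interval was well clear of 0. H2-K1 (2343 and 2032 CPM; -0.21, -0.32 to -0.09) and H2-D1 (2784 and 2453 CPM; -0.18, -0.29 to -0.07) were within the limit. With TMM scaling they were at -0.087 (-0.21 to 0.032) and -0.064 (-0.17 to 0.045), and with DESeq2 factors at -0.047 and -0.024, again with intervals that spanned 0, as did those of Psmb9 (-0.29 and -0.26). B2m, Tap1, Tap2, Tapbp and Nlrc5 had intervals that spanned 0, and Nlrc5 stood at 53.6 and 55.4 CPM.

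UMIs of neutrophil genes were more frequent in T/NK cells of 4T1M. S100a8 and S100a9 were at 14556 CPM against 144 in 4T1P, and granule genes at 5908 against 16.5 CPM. Class II genes were at 572 against 120 CPM. Of the T/NK cells of 4T1M 2 also met the neutrophil rule and 2 the macrophage rule. In the 73 and 94 cells that met the T/NK rule alone, S100a8 and S100a9 were at 144 and 492 CPM and class II genes at 122 and 181 CPM, and the log2 ratios were -0.70 for Psmb8, -0.46 for Psmb9 and -0.57 for Psmb10, so these values were about as large without those cells.

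Within 4T1P, T/NK cells had the highest level of the 3 classes for all of the 10 genes but Tapbp and Psmb10. Within 4T1M they had it for H2-K1, H2-D1, Tap1, Tap2 and Nlrc5. The share of all genes with their highest level in T/NK cells is not given, so this has no background. The Tap1 interval overlapped that of macrophages in 4T1M. The Tap2 interval overlapped that of neutrophils in 4T1P and that of macrophages in 4T1M. Over neutrophils of the same library, the 10 genes had a median log2 ratio of 0.47 in 4T1P macrophages and 0.50 in 4T1M macrophages. In 4T1P macrophages 6 were above 0.35, beside 67.5% of 8822 genes, and 0 below -0.35, beside 19.1%. In 4T1M macrophages 8 were above, beside 65.5% of 9319 genes, and 1 below, beside 20.2%. All measured genes had higher medians in those contrasts, 1.14 and 1.01. In 4T1P T/NK cells the median over neutrophils was 0.94 where all genes had 0.66, with 10 above 0.35 (57.6% of all) and 0 below (27.6%). In 4T1M T/NK cells it was 0.78 where all genes had 0.60, with 8 above (56%) and 0 below (29.2%).

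Psmb10 had the largest step between myeloid classes, 2.63 (2.23 to 3.06) in 4T1P and 2.35 (2.14 to 2.57) in 4T1M in favor of macrophages. Psmb8 followed with 1.27 and 1.49. For B2m it was 0.88 and 0.96. H2-D1 was level in 4T1P (0.04, -0.01 to 0.09) and higher in macrophages of 4T1M (0.34, 0.30 to 0.37). Tap1 was lower in macrophages than in neutrophils in 4T1P (-0.24, -0.46 to -0.01) and higher in 4T1M (0.38, 0.25 to 0.51), and Tap2 (-0.23 and 0.40) and Psmb9 (-0.09 and 0.41) had values in the same order, with 4T1P intervals that spanned 0. Nlrc5 went the other way, from 0.42 (-0.21 to 1.10) in 4T1P to -0.42 (-0.73 to -0.11) in 4T1M.

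The exchange of proteasome subunits was read as the share of the immune subunit in the UMIs of each pair. In macrophages the 3 immune subunits made up 58.4% of the UMIs of all 6 catalytic genes in 4T1P (57.4 to 59.5) and 65.4% in 4T1M (64.5 to 66.2). The standard subunits differed little there, Psmb5 by -0.06, Psmb6 by 0.08 and Psmb7 by 0.13 in log2 ratio, each with an interval that reached 0. Psmb9 was 44.5% of its pair with Psmb6 in 4T1P (42.6 to 46.3) and 54.6% in 4T1M (53.0 to 56.2). Psmb8 was 68.6% and 75.3% of its pair with Psmb5, and Psmb10 56.7% and 60.3% of its pair with Psmb7.

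In neutrophils the immune share was high in both libraries, 69.6% (66.8 to 72.3) in 4T1P and 70.6% (69.0 to 72.2) in 4T1M, with intervals that overlapped. Its make-up differed from that of macrophages. Psmb9 was 76.1% and 78.1% of its pair in neutrophils, above both macrophage values, whereas Psmb10 was 32.3% (25.2 to 40.1) and 37.3% (33.3 to 41.4), below both. In T/NK cells the immune share was 73.5% (69.6 to 77.2) in 4T1P and 66.2% (61.6 to 70.5) in 4T1M. UMIs compared within a pair come from different transcripts, so a share states mRNA tags and not assembled particles.

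**Figure D3:**
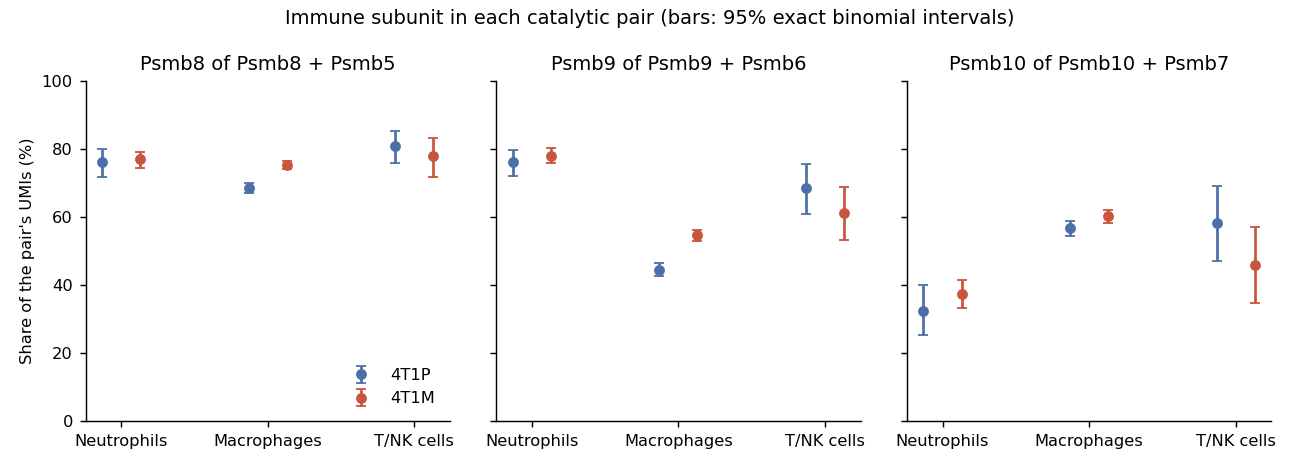
Share of the immune subunit in the UMIs of its catalytic pair (percent) for 4T1P (blue) and 4T1M (red), with bars for 95% exact binomial intervals. In macrophages the Psmb9 share is 44.5% in 4T1P and 54.6% in 4T1M, and in neutrophils the Psmb10 share is 32.3% and 37.3% while the Psmb9 share is 76.1% and 78.1%.

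Single cells were compared after each had been thinned to 1000 UMIs, which left out 4 neutrophils and 1 T/NK cell of 4T1M and 26 and 37 macrophages. A median neutrophil held 4 UMIs of the 10 genes per 1000 in both libraries, with a 90th percentile of 8 in 4T1P and 9 in 4T1M. A median macrophage held 5 in 4T1P and 7 in 4T1M (10th to 90th percentile 2 to 11 and 3 to 12). T/NK cells had a median of 7 in both. At least 1 UMI of the 10 genes was found in 94.9% and 96.3% of neutrophils and 97.9% and 98.9% of macrophages.

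Gene by gene, H2-K1 was found in 47.5% of thinned 4T1P neutrophils (43.5 to 51.6) and 56.8% of 4T1M neutrophils (54.4 to 59.2), and in 57.4% (53.8 to 60.9) and 70.1% (67.0 to 73.0) of macrophages. Without thinning the shares were 83.0% and 85.7% in neutrophils and 88.0% and 92.4% in macrophages. Tapbp was found in 10.5% and 15.2% of thinned neutrophils, and Nlrc5 in 0.654% (0.178 to 1.66) and 2.97% (2.21 to 3.90). The Nlrc5 share in thinned neutrophils is near that of 1 UMI per cell in few cells, 4 and 50 of them. None of these classes lacks class I, so the share that free RNA gives could not be set beside these values.

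**Figure D4:**
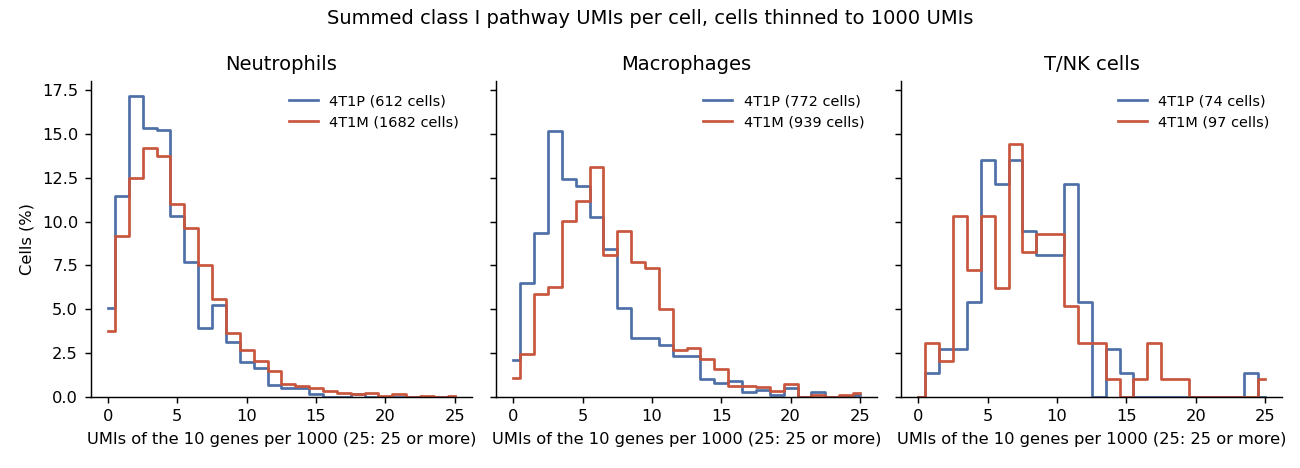
Share of cells (percent) by the summed UMIs of the 10 genes per 1000 UMIs in each class, for 4T1P (blue) and 4T1M (red). The macrophage curve of 4T1M lies to the right of that of 4T1P, with medians of 7 and 5, while the medians of neutrophils (4) and T/NK cells (7) are equal.

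Class I levels were higher in neutrophils with more interferon-stimulated UMIs, in both libraries. Thinned cells were grouped by UMIs of 20 interferon-stimulated genes such as Isg15, Rsad2 and Ifit1, none of them among the 10. In 4T1P neutrophils the summed class I level was 3130 CPM with 0 such UMIs, 3531 with 1 to 2, 4520 with 3 to 5 and 6121 with 6 or more. In 4T1M neutrophils it was 3533, 3922, 4834 and 6708 CPM. The highest group exceeded the lowest by 0.97 in 4T1P (0.80 to 1.13) and 0.92 in 4T1M (0.82 to 1.03) on the log2 scale, and by 0.84 to 1.11 and 0.85 to 1.01 over 20 draws of the thinning.

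Between the lowest and the highest group, the point values of Tap1, Psmb8 and Psmb9 differed by more than that of H2-K1. Tap1 was at 24.7 CPM (6.73 to 63.2) and 164 CPM (98.6 to 256) in 4T1P, from 4 and 19 UMIs, and at 45.3 (24.1 to 77.5) and 214 (176 to 258) in 4T1M. Psmb8 was at 86.4 and 362 CPM in 4T1P and at 83.6 and 253 in 4T1M. H2-K1 differed by 0.96 (0.55 to 1.38) in 4T1P and 0.70 (0.48 to 0.92) in 4T1M on the log2 scale. Tap1 differed by 2.73 (1.14 to 4.74) and 2.24 (1.41 to 3.20). Psmb8 differed by 2.07 (1.17 to 3.05) and 1.60 (0.96 to 2.29), and Psmb9 by 2.10 (1.20 to 3.09) and 1.95 (1.30 to 2.67). The intervals of Tap1, Psmb8 and Psmb9 overlapped that of H2-K1 in 4T1P and lay above it in 4T1M. Tapbp differed by 1.26 (0.25 to 2.32) and 1.47 (0.86 to 2.14), and Tap2 by 1.60 (0.10 to 3.28) and 0.77 (-0.02 to 1.63). Their intervals overlapped that of H2-K1 in both libraries. Of the neutrophils, 19.0% of 4T1P (15.9 to 22.3) and 30.5% of 4T1M (28.3 to 32.8) were in the highest group. When the 4T1M groups were weighted by the shares of 4T1P, the log2 ratio of the summed level went from 0.26 to 0.14.

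Neutrophils with many granule UMIs, the less mature ones, held the least class I. Over 0 to 2, 3 to 10, 11 to 30 and more than 30 UMIs of 8 granule genes such as Camp, Ltf and Ngp, the summed level was 4405, 3650, 2769 and 1765 CPM in 4T1P and 5276, 4199, 2650 and 2121 CPM in 4T1M. The last group has 17 cells in 4T1P and 33 in 4T1M, and without it the order is the same in each library. The groups with up to 10 granule UMIs were higher in 4T1M (log2 ratio 0.26, 0.19 to 0.33, and 0.20, 0.05 to 0.36), and those above could not be told apart at this depth. Granule genes were lower in the summed 4T1M neutrophils (14121 and 8686 CPM). The thinned groups had similar shares in both libraries, with 73.4% of 4T1P and 75.0% of 4T1M neutrophils in the lowest. Weighting by the 4T1P shares could therefore change little, and the log2 ratio was 0.24 with it. The part of granule content in the ratio was not tested.

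Macrophages showed another pattern. With 0, 1 to 2, 3 to 5 and 6 or more interferon-stimulated UMIs, the summed class I level was 5291, 5658, 6443 and 8485 CPM in 4T1P and 6684, 7161, 7531 and 7679 CPM in 4T1M. The cells with 0 such UMIs were already higher in 4T1M by 0.34 (0.24 to 0.44), while the highest groups, 33 and 137 cells, differed by -0.14 (-0.34 to 0.05). Only 4.27% of 4T1P macrophages and 14.6% of 4T1M macrophages were in that group, and weighting by the 4T1P shares moved the log2 ratio from 0.34 to 0.30. Over 20 draws of the thinning, the ratio in the lowest group stayed between 0.30 and 0.50, and that in the highest between -0.16 and 0.23.

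Macrophages were also ordered by C1qa, C1qb and C1qc, which the class rule uses and which were chosen for this after the data were seen. With 0, 1 to 4, 5 to 14 and 15 or more C1q UMIs the class I sum was 4462, 4405, 6013 and 9536 CPM in 4T1P and 6723, 5854, 7547 and 9750 CPM in 4T1M. The macrophages richest in C1q held the most class I in either library. Between libraries they differed by 0.03 (-0.11 to 0.18) and those with no C1q UMI by 0.59 (0.45 to 0.73), but over 20 draws of the thinning these values ran from 0.032 to 0.43 and from 0.37 to 0.72, ranges that overlap.

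**Figure D5:**
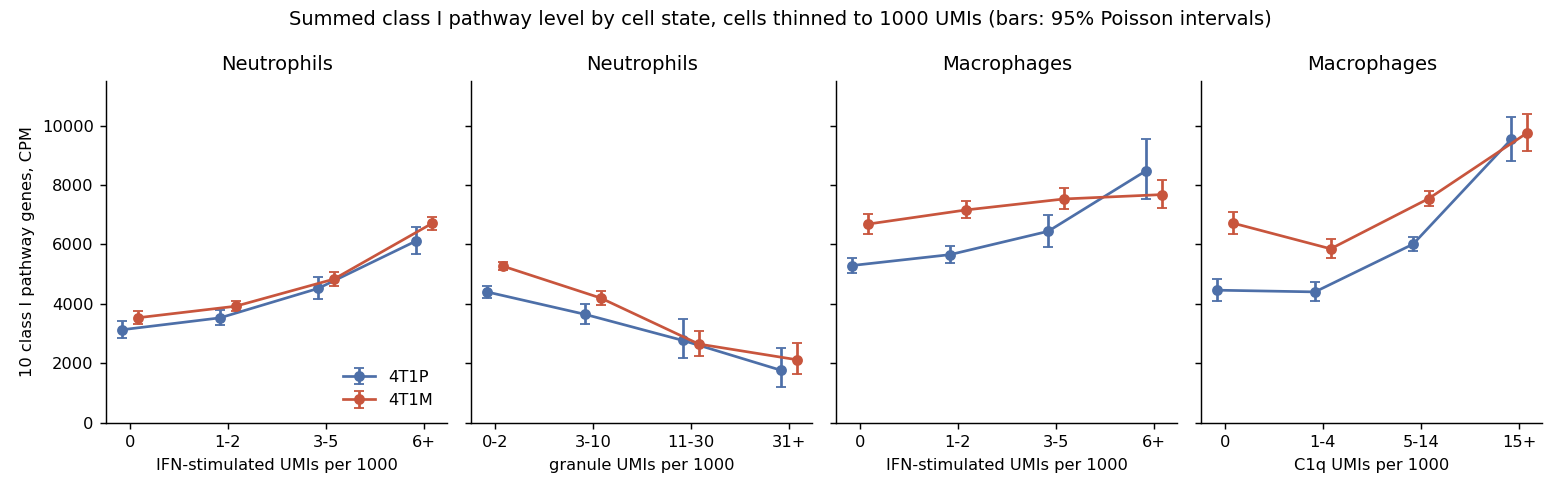
Summed level of the 10 genes (CPM) in thinned cells grouped by interferon-stimulated, granule or C1q UMIs per 1000, for 4T1P (blue) and 4T1M (red), with bars for 95% Poisson intervals. In neutrophils the libraries run close together from about 3130 and 3533 CPM to 6121 and 6708 CPM. Macrophages of 4T1M start above those of 4T1P and meet them in the highest group in the draw of the thinning shown. Over 20 draws the log2 ratio in the highest macrophage group ran from -0.16 to 0.23 for interferon-stimulated UMIs. For C1q UMIs it ran from 0.032 to 0.43.

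Of the interferon signalling genes described here, the kinase Jak2 had the widest difference in neutrophils, at 98.7 CPM in 4T1P and 173 CPM in 4T1M (log2 ratio 0.81, 0.61 to 1.02). It was at 60.7 and 96.4 CPM in macrophages (0.67, 0.51 to 0.83). Jak2 was not the only gene of the interferon signalling list above 0.35 in either class. In macrophages another gene of the list had the largest log2 ratio, 0.98. Irf1, a direct activator of class I promoters, had log2 ratios of 0.08 (-0.05 to 0.20) in neutrophils and -0.18 (-0.32 to -0.04) in macrophages, and the receptor chains Ifngr1, Ifngr2, Ifnar1 and Ifnar2 stayed within 0.35 of 0 in both. The 19 measured interferon-stimulated genes had a median of 0.93 in neutrophils, with 16 above 0.35, beside 20.7% of all measured genes. In macrophages the median was 1.05 with 18 above, beside 9.57%. Both medians were larger than those of the class I genes.

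Factors that bind class I promoters were, Nfkb1 aside, measured thinly. In neutrophils 3 of 6 were above 0.35 (20.7% of all measured genes were) and 0 below -0.35 (10.3% were). The 3 were Nfyc at 1.04 from 19 and 103 UMIs, Nfkb1 at 0.45 (143 and 196 CPM) and Rfxap at 0.39. In macrophages 1 of 8 was above (9.57% of all were), Rfxank at 0.61 from 45 and 73 UMIs, and 0 below (12.1% were).

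Other class I heavy chains were for the most part higher in 4T1M myeloid cells, and near-identical copies among them may share reads. In neutrophils 5 of 9 measured were above 0.35 (20.7% of all genes were) and 0 below -0.35 (10.3% were), with a median of 0.43. In macrophages 8 of 14 were above (9.57% of all were) and 2 below (12.1% were), with a median of 0.45. H2-T23, which encodes the Qa-1 heavy chain that presents leader peptides to NK cells, was at 212 and 291 CPM in neutrophils and 131 and 210 CPM in macrophages (0.46 and 0.68). H2-Q7, of the Qa-2 family, was at 355 and 451 CPM (0.35) and 149 and 213 CPM (0.52). Of the 90-base stretches in the last 500 bases of their reference transcripts, 26.9% of those of H2-Q6 and 26.4% of H2-T22 occur in another gene. The share was 13.4% for H2-T23 and 4.73% for H2-Q7, against 0.151% for H2-K1 and 0 for the other 9 genes described here. Sequences of BALB/c were not searched, so these shares do not cover its alleles or genes. In T/NK cells 4 of 6 were below -0.35 (25.8% of all were), H2-T23 at -0.46 among them, and 0 above 0.35 (11% were).

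Genes of the chaperones and editing enzymes that class I loading uses were close between libraries in macrophages. Of 8 chaperones and editing enzymes 0 were past 0.35 in either direction there, beside 9.57% of all measured genes above and 12.1% below. Their median was -0.09. Calr, which holds the loading complex together, was at 824 and 796 CPM, and Pdia3, the partner of tapasin, at 437 and 448 CPM. Erap1, which trims peptides, had a log2 ratio of 0.21. In neutrophils 2 of 8 were above 0.35, near the share of all measured genes (20.7%). They were Canx at 0.61 (48.3 and 73.7 CPM) and Tapbpl at 0.48 from 15 and 55 UMIs. The proteasome activator PA28, which opens the particle, was higher in macrophages, Psme1 at 262 and 352 CPM (0.43) and Psme2 at 161 and 204 CPM (0.34), and in neutrophils Psme1 and Psme2 stood at 0.15 and 0.19. For the list of activators 2 of 6 were above 0.35 in macrophages (9.57% of all were) and 0 of 6 in neutrophils (20.7% were). Class II genes, which present peptides from outside the cell, were above 0.35 for 6 of 7 in macrophages, beside 9.57% of all measured genes. Their median was 0.48, and H2-Ab1 was at 1985 and 2902 CPM (0.55).

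The genes whose levels over the 6 sums of class and library were most like the mean profile of the 10 were, of 2875 with enough UMIs, Nfkb1, Arhgap17, Usp47, Kdm1a, Mcur1, March5, Prpf39 and Irs2, with root mean square differences of 0.13 to 0.17 on the log2 scale. Of the 10 genes B2m was nearest to their own mean (0.15), and Nlrc5 (0.68) and Psmb10 (0.77) were furthest from it.

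Over all retained cells the class I sum was 5242 CPM in 4T1P and 6263 CPM in 4T1M (log2 ratio 0.26, 0.24 to 0.27). Of the 10 genes 5 were above 0.35, beside 11.4% of 11061 genes, 0 were below -0.35, beside 29.4%, and 9 were above 0, beside 32.4%. Neutrophils gave 19.3% of the retained UMIs in 4T1P and 33.9% in 4T1M, and macrophages 67.6% and 48.3%. With the class shares of 4T1P, the 4T1M value was 6740.4 CPM (0.36). Psmb10, which neutrophils hardly hold, was most affected: its log2 ratio was -0.01 (-0.11 to 0.09) over all cells and 0.28 with the class shares of 4T1P. Since the sort takes neutrophils and monocytic cells together, a level in the whole population mixes the share of each class with its level.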

How the data were processed

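Single-cell RNA-seq was analysed for 1 droplet library of GR1+ cells per condition (4T1P and 4T1M). The deposited values are raw counts: the authors used Cell Ranger on GRCm38 (mm10) to align reads and count UMIs, version 4.0.0 per the labels and the file headers, while the methods name a later one. No doublets were removed. Classes were set by UMI shares as stated in the results, and CPM with exact Poisson intervals were taken from the sums over the cells of a class. Log2 ratios have exact conditional intervals and shares exact binomial (Clopper-Pearson) ones, at 95%, for counting error only; UMIs per class ranged from 484905 (4T1P T/NK cells) to 9343315 (4T1M macrophages). Cells with fewer than 1000 UMIs were left out of thinned values.

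A gene was measured with at least 50 UMIs over both libraries, and 0.35 was the log2 limit. The 10 genes, the lists, the tests and the 9 planned and 4 added alternatives were chosen with earlier results of these data known. Named were the 10 genes, list genes with at least 100 CPM in a library or a textbook role in class I, and the 8 genes nearest in profile; Nfyc, Rfxap, Rfxank and Tapbpl were named after their values were seen. The counts of the list of interferon signalling genes are not reported here. H2-T10, Nrdc, Mx1 and Mx2 had no feature of that symbol. Interval coverage was tested on simulated Poisson counts, the model that the intervals assume, so this cannot show error from spread between cells. In thinned cells the variance of the summed 10 genes over its mean was 2.04 (4T1P) and 2.40 (4T1M) in neutrophils. It was 2.64 and 2.20 in macrophages, a spread that the intervals leave out. Python 3.11.15 with scipy 1.17.1 was used, and edgeR 4.0.16 and DESeq2 1.42.0 in R 4.3.3 for scaling factors only.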

Additional observations from a re-analysis of the deposited data

Results flagged for a closer look

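For H2-K1, H2-D1, Psmb8 and Psmb9 the ratio of 4T1M over 4T1P had opposite signs in T/NK cells and in a myeloid class. Their counting intervals did not reach 0 in either. The share of all genes that did the same is not given. Over all measured genes, 432 of 3154 intervals lay below 0 in T/NK cells. Above 0 lay 1053 of 6464 in neutrophils and 1216 of 9874 in macrophages. There is 1 library per condition, so these differences between classes were not tested. In log2 units, the H2-K1 ratio was higher than in T/NK cells by 0.64 in neutrophils and by 0.81 in macrophages. For H2-D1 the differences were 0.31 and 0.61. For Psmb8 they were 0.93 and 1.15, and for Psmb9 the macrophage ratio was higher by 1.08. The T/NK values rest on 74 and 98 cells, and with TMM or DESeq2 scaling the T/NK intervals of H2-K1, H2-D1 and Psmb9 spanned 0 while that of Psmb8 did not. In neutrophils the Psmb8 interval spanned 0 with TMM scaling (0.16, -0.019 to 0.34) and without the 5% deepest cells (0.19, -0.013 to 0.39). The macrophage interval of Psmb8 stayed above 0 in both settings.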

How the results depend on the processing

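For the summaries, 152 values were recomputed under 13 alternatives. Of these, 139 kept their direction and moved by less than the counting interval or, for counts, by no more than 1.5 times. Another 11 moved further and 2 reversed. Of 310 values of single genes, 31 moved further and 3 were counted as reversed, all of Psmb10. B2m was among those that moved, in macrophages from 0.36 to 0.24 with the mean over cells. In neutrophils without macrophage or class II UMIs it moved from 0.27 to 0.55. More changed sign, as given below, but those were of genes whose main ratio was within 0.35 of 0. The difference in the immunoproteasome share of neutrophils, 1.01 percentage points, became -0.42 with stricter class limits and -0.081 without the 5% deepest cells, and that of macrophages, 6.94 points, became 4.85 at a mitochondrial limit of 5%. The Psmb10 ratio reversed to -0.062 in neutrophils without macrophage or class II UMIs, and in T/NK cells to 0.085 at the 5% mitochondrial limit and 0.032 without an upper limit on genes. Genes below -0.35 went from 0 to 1 in neutrophils with stricter limits (Tap2, -0.38) and from 3 to 1 in T/NK cells without class II UMIs, and genes above 0.35 in T/NK cells from 0 to 1 with DESeq2 scaling and with the mean over cells. Shares of all genes past 0.35 are given for the main setting only. The median of the 10 genes in T/NK cells over neutrophils in 4T1P became 1.27 at the 5% mitochondrial limit, 0.81 with the mean over cells and 0.83 without the deepest cells, and that of macrophages over neutrophils in 4T1M 0.35 and 0.71 at the 5% mitochondrial limit and with stricter limits. The contrast of highest to lowest granule group in 4T1P, -1.32, became -2.13 without the deepest cells. Within the interval, the median of the 10 genes in T/NK cells (-0.16) ranged from -0.35 (5% mitochondrial limit) to -0.0065 (DESeq2), and the genes above 0.35 in macrophages from 6 to 10. The cause of these changes was not tested. No gene changed sign in macrophages (90 values), 1 value of 110 did in neutrophils and 15 of 110 in T/NK cells. No paired analysis was possible because each condition has 1 library. Depth limits Nlrc5 and Psmb10 in neutrophils and every gene but the chains and Psmb8 in T/NK cells.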

Other observations

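Cells that met no class rule (243 in 4T1P and 705 in 4T1M) held B2m at 1811 and 1825 CPM, H2-K1 at 1135 and 1367 CPM and Tapbp at 143 and 209 CPM. In these cells the neutrophil rule genes were at 5971 and 10783 CPM and the macrophage rule genes at 3176 and 3044 CPM. Barcodes outside the limits on genes or mitochondrial UMIs (1221 and 1543) held the 10 genes at 4973 CPM (4927 to 5020) in 4T1P and 5075 CPM (5012 to 5138) in 4T1M, with median mitochondrial shares of 16.0% and 13.1%.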
